A study of Mus musculus with 3 samples.

Results

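Bone morphogenetic proteins (BMPs) and transforming growth factors beta (TGF-beta) are secreted ligands that signal through Smad proteins, and their genes are described here in cultures of embryonic mouse forebrain. The genes were chosen by symbol: ligands, receptors, secreted antagonists, latent TGF-beta binding proteins, Smads and Smurfs. The pattern names 69 genes in RefSeq, and 66 of them (67 probe sets) had a probe set assigned to them alone, out of 20751 genes tested and 41345 probe sets on the array. The remaining 3 were not analysed here as genes of their own.

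The samples are 3 biological replicate cultures, 1 array each, labelled as purified interneurons of the medial ganglionic eminence (MGE), the ventral forebrain region that gives rise to many cortical GABA-releasing cells. The donors were wild-type embryos of CD-1 mice, taken at embryonic day 13. Plating was at 59000 cells per square centimetre on laminin and poly-D-lysine, in Neurobasal medium with B27, glutamine and FGF2 at 40 ng/ml. Cytosine arabinoside (AraC), a nucleoside analogue that kills dividing cells, was added on day 5 at 1 µM for 24 h, then washed out, and RNA was taken after culture for a further 2 days. The cultures form 1 group and the series holds no control, so no gene can be called higher or lower than in another condition. The labels do not say whether the cultures came from separate litters. The cultures may therefore not be independent, and the p-values may then be too small. The error in each p-value comes from these 3 cultures, with the spread of each probe set drawn towards that of all probe sets tested. The p-values compare a mean with a background line described below, and not the cultures with each other.

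In this pathway a ligand dimer joins type I and type II serine/threonine kinase receptors, and the type I receptor phosphorylates receptor-regulated Smads. BMP receptors act mainly through Smad1, Smad5 and Smad9, and TGF-beta and activin receptors through Smad2 and Smad3, and both sets enter the nucleus with Smad4. Secreted antagonists such as noggin and chordin hold ligands away from receptors, and Smad6, Smad7 and the Smurf ubiquitin ligases dampen the signal inside the cell. In the embryonic forebrain BMPs are best known as dorsal signals, and in cultured progenitors they favour astrocytes over neurons and oligodendrocytes.

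Values are log2 signals of a probe set, and 3 values in a row are those of cultures 1, 2 and 3. Means are given ± SD with n = 3. Binding strength differs from probe to probe, so a level was compared with a background line and with the other cultures, never with another gene. The line is 6.26 log2 units, the 95th percentile of 1440 probe sets that measure receptors of smell, pheromones and bitter taste. A gene is called above background where limma's one-sided moderated test of its mean against the line gave a Benjamini-Hochberg adjusted p under 0.05 over all probe sets tested. The line is lenient: of 166 genes of defensins, keratin-associated proteins and other families not expected in brain, 23 (13.9%) were called, and 4 (2.41%) with a margin of 1 log2 unit. The median SD was 0.17 log2 units over the 66 genes. Arrays give no read depth, and their number limits the precision.

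The arrays measured whole cultures, and a lower signal can come from fewer cells of a type or from less RNA per cell, which cannot be told apart. All 8 MGE interneuron markers were above background, among them Gad1, Lhx6, Nkx2-1 and Sst. So were 5 of 6 astrocyte markers, 6 of 6 of the oligodendrocyte lineage, 4 of 4 of progenitors and 3 of 3 of dividing cells. With the margin the counts of these 4 lists were 4, 6, 3 and 3. A signal therefore cannot be assigned to the interneurons. Markers of fibroblasts, meninges and pericytes were called in 7 of 10 (1 with the margin), of endothelium in 4 of 5 and of microglia in 3 of 5 (0 of either with the margin), and of choroid plexus and roof plate in 1 of 4 (1 with the margin). Beside these counts, 63.4% of all genes tested were called, and 47.6% with the margin. None of 4 markers of cortical glutamatergic neurons was called by limma, and 0 had an unadjusted p under 0.05. In culture 2, however, each lay over the line. Slc17a7 gave 6.11, 7.22 and 6.63, and Slc17a6 gave 6.11, 7.01 and 6.07. Neurod6 (5.63, 6.28 and 5.60) and Tbr1 (5.87, 6.27 and 5.89) were barely over it in that culture. Slc17a7 was called without culture 1 (adjusted p by limma 0.041).

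Signal above background was found for 44 of the 66 BMP and TGF-beta genes (66.7%), where 63.4% of all genes tested were called. With a margin of 1 log2 unit it was found for 29 (43.9%), where 47.6% of all genes were called. Both shares of the 66 lie close to those of all genes. By role the counts were uneven. All 6 receptor-regulated and common Smads, all 4 type II receptors, all 4 latent TGF-beta binding proteins and all 3 TGF-beta ligands were called, as were 9 of 11 secreted antagonists and follistatin-like genes and 5 of 7 type I receptors. Of the BMP and GDF ligands 6 of 18 were called, and of the activin, inhibin and nodal subunits 2 of 6. With the margin 5 of 6 of these Smads, 3 of 4 type II receptors and 4 of 7 type I receptors were called. So were 2 of 4 latent TGF-beta binding proteins, 2 of 3 TGF-beta ligands and 4 of 11 antagonists and follistatin-like genes. Of the BMP and GDF ligands 3 of 18 remained, and of the activin, inhibin and nodal subunits 1 of 6. These differences between roles were not tested.

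**Figure D1:**
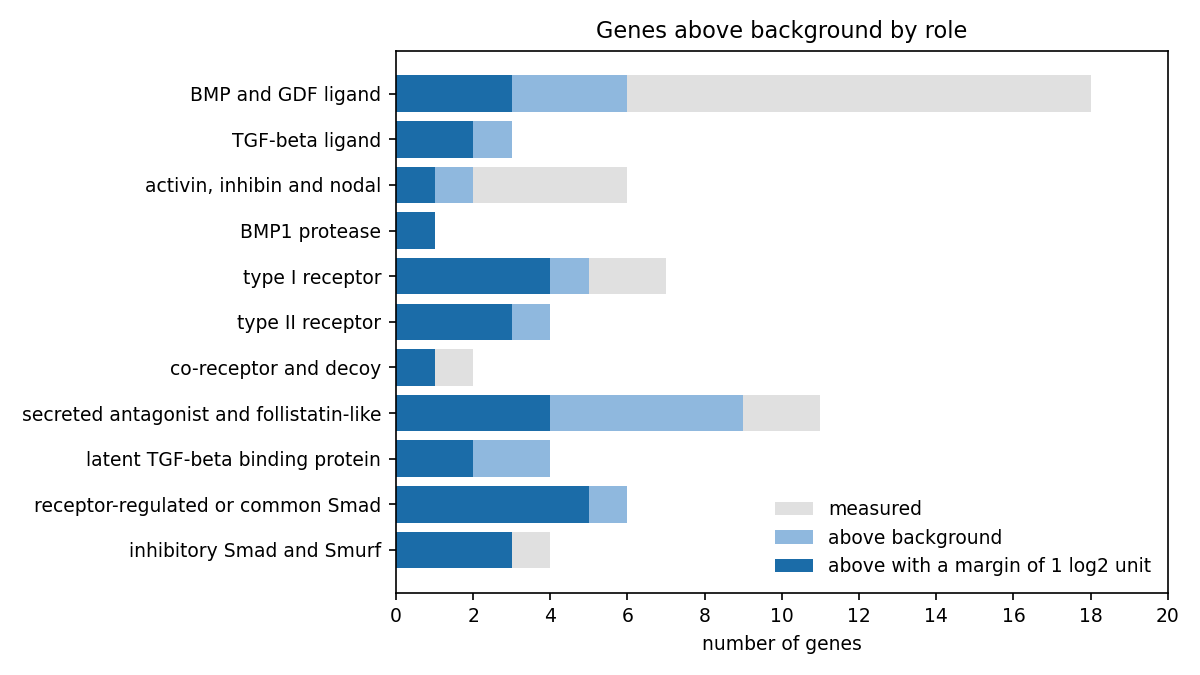
Number of genes (x axis) in each role (y axis) that were measured (grey), above background (light blue) and above it by a margin of 1 log2 unit (dark blue). The bars overlie one another and all start at 0; BMP and GDF ligands have 6 of 18 genes above background and 3 with the margin.

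**Figure D2:**
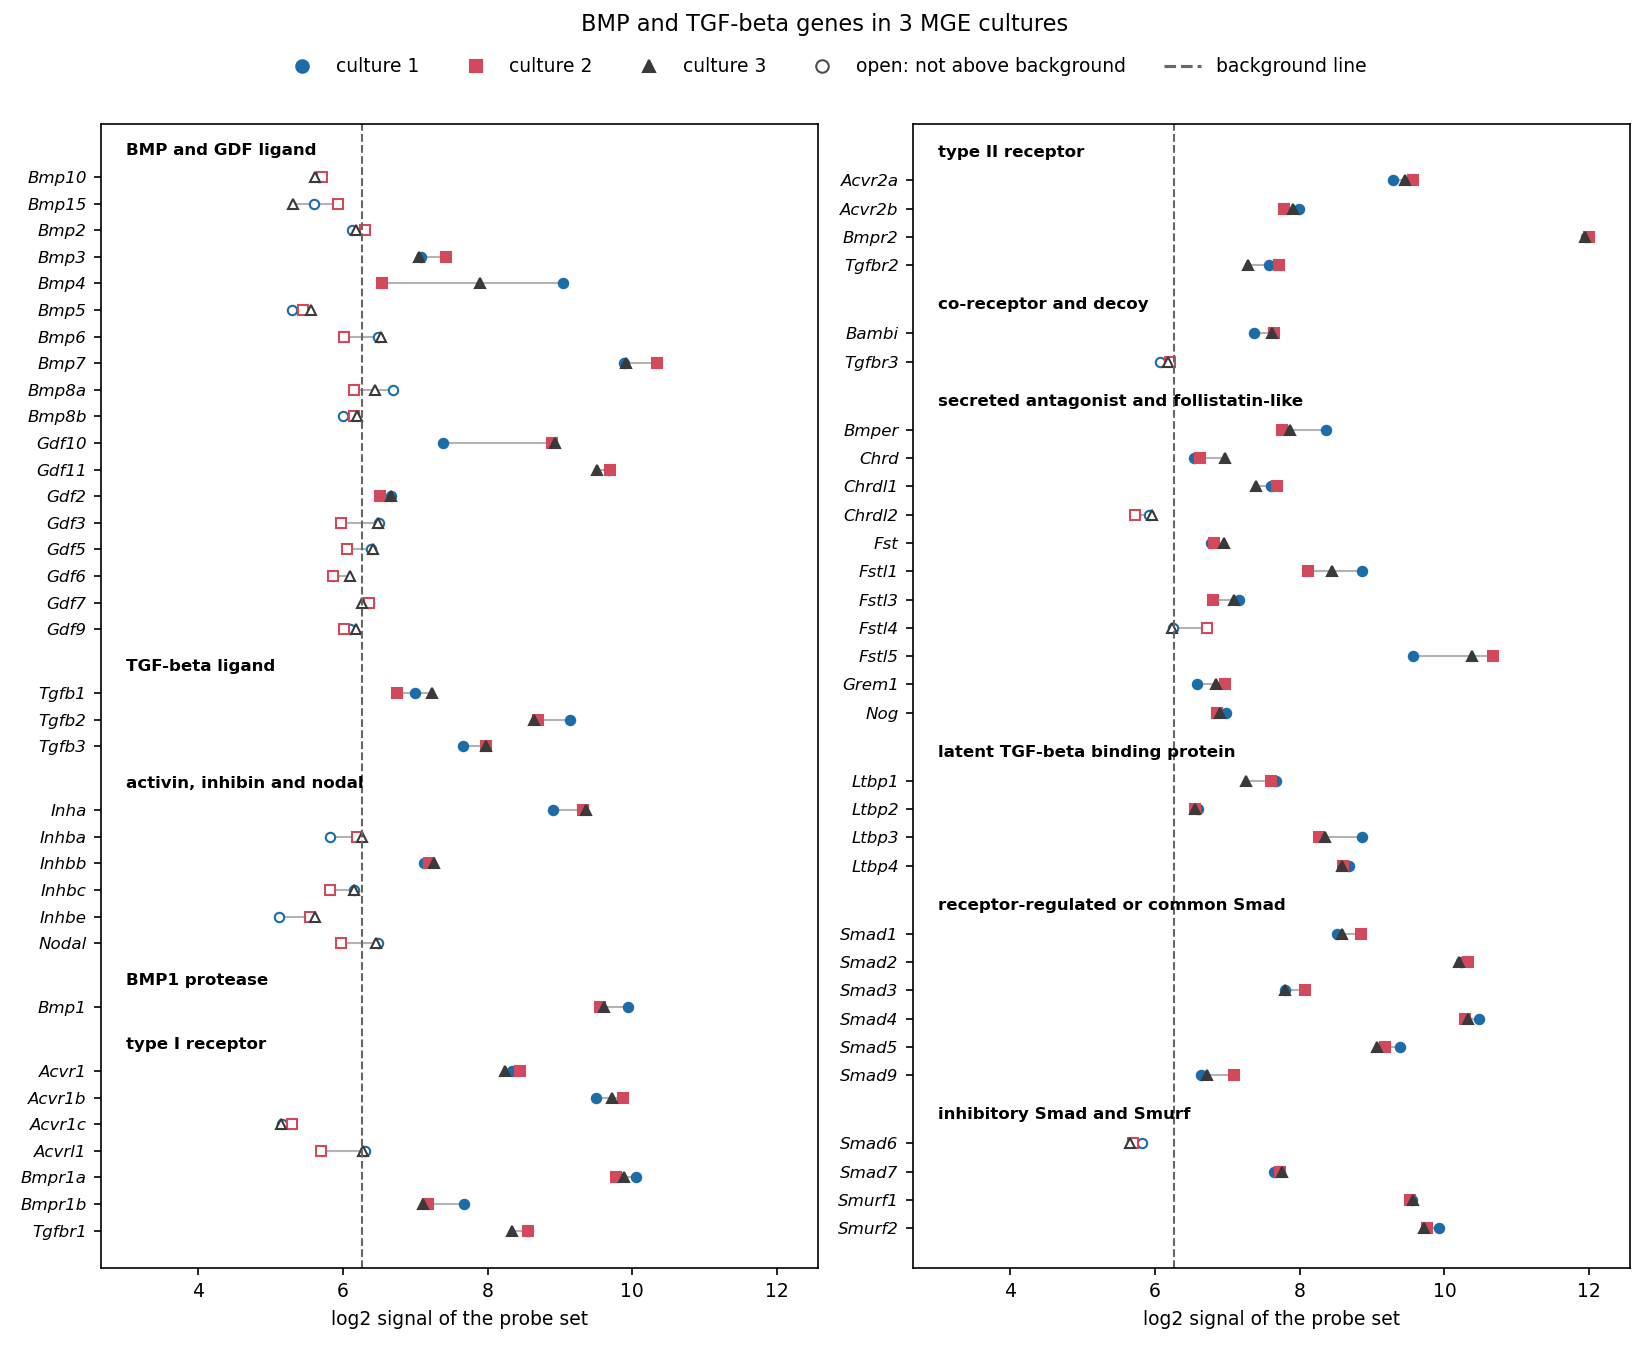
Log2 signal (x axis) of each of the 66 genes (y axis, grouped by role) in culture 1 (circle), culture 2 (square) and culture 3 (triangle), with the background line at 6.26 dashed and open symbols for genes not above background. Levels of different genes are not comparable; Bmp4, Gdf10 and Fstl5 have the widest gaps between cultures.

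Bmp4, Gdf10 and Fstl5 were the genes whose cultures lay more than 1 log2 unit apart, and the sequence before each start site is shown because these 3 have the widest ranges of the 66. Id4, a gene known to be induced by BMP, is shown with them. The 250 bases before the RefSeq start site (GRCm38.p6, first window listed for the gene) are given 5′ to 3′ on the gene's strand. Capitals mark GGCGCC, a GC-rich motif known from BMP-responsive elements, and CAGAC or its reverse complement GTCTG, a Smad-binding motif. Bmp4 lies at chr14:46390670-46390919 (minus strand), Gdf10 at chr14:33923337-33923586 (plus), Fstl5 at chr3:76074311-76074560 (plus) and Id4 at chr13:48260866-48261115 (plus).
Bmp4: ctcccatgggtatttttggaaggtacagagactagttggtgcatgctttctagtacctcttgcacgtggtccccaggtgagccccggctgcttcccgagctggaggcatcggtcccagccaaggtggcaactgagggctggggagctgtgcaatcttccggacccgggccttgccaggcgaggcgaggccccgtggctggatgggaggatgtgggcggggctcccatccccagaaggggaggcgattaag
Gdf10: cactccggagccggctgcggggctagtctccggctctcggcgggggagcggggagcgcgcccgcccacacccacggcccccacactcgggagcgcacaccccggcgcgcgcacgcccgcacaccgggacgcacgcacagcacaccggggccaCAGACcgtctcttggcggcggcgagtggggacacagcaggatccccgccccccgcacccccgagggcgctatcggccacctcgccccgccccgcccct
Fstl5: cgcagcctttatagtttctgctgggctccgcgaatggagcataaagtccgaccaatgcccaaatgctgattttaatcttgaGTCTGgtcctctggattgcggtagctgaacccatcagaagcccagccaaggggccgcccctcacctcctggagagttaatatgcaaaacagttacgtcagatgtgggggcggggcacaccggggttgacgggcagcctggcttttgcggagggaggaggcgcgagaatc
Id4: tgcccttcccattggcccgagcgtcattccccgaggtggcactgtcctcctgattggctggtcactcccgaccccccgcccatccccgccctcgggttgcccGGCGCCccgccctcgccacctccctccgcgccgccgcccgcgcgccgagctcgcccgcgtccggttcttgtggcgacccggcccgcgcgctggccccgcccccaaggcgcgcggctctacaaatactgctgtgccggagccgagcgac

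The Bmp4 window held neither motif, those of Gdf10 and Fstl5 held 1 CAGAC or GTCTG each, and that of Id4 held 1 GGCGCC. The windows of its relatives Id2 and Id3, not shown, differed: Id2 held 1 GGCGCC, and Id3 held 0 GGCGCC and 2 CAGAC or GTCTG. Windows were at hand for 47 of the 66 genes. GGCGCC occurred in 7 of the 33 windows of genes above background (21.2%), namely Bmpr1a, Bmpr2, Chrd, Grem1, Smad9, Smurf2 and Tgfbr1, and in 0 of the 14 windows of genes not above it. It occurred in 17.4% of windows of all genes above background, in 5.53% of those of genes not above it and in 9.54% of all 27025 windows. CAGAC on either strand occurred in 22 of the 47 (46.8%) and in 42.1% of all windows. A match describes letters and not a bound site. The median number of CG dinucleotides in a window was 22 for the 33 and 9 for the 14, and it was 16 and 3 for all genes above and not above background.

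Among the BMP and GDF ligands, Bmp7, Gdf11, Gdf10, Bmp4, Bmp3 and Gdf2 were above background. Bmp7, a ligand of the dorsal midline and meninges, gave 9.89, 10.34 and 9.92 (10.05 ± 0.25). Gdf11, a ligand close to myostatin that limits neurogenesis, gave 9.68, 9.69 and 9.51 (9.63 ± 0.10). The ranges of these ligands were 0.45 and 0.19 log2 units, and every culture was well over the line.

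Bmp4, a ligand that patterns the dorsal forebrain and promotes astrocyte fate, gave 9.04, 6.55 and 7.89 (7.83 ± 1.25). Culture 1 was high, culture 2 was barely over the line and culture 3 lay between them. The range of 2.49 log2 units was the widest of all 13155 genes above background, also after quantile normalization (2.49) and after median centring (2.43). Culture 2 lay under 7.10, the 99th percentile of the same background probe sets, so no linear fold is given. The call of Bmp4 depended on which cultures were used. Its adjusted p by limma was 0.0279 with all cultures, 0.0988 without culture 1, 0.0232 without culture 2 and 0.125 without culture 3, so it was not called without culture 1 or without culture 3.

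Gdf10, also known as BMP3B and a relative of Bmp3, showed another pattern and gave 7.39, 8.90 and 8.92 (8.40 ± 0.88). Here culture 1 was low and cultures 2 and 3 were alike. The range of 1.54 log2 units was 2.90-fold, and 19 of the 13155 genes above background had a range at least as wide (0.144%). The adjusted p by limma was 0.00305, and without culture 2 it was 0.0547, which did not pass.

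Bmp3, a ligand known to oppose other BMPs, gave 7.07, 7.43 and 7.05 (7.18 ± 0.21). Gdf2, also called BMP9 and known as a liver-made ligand of endothelial cells, gave 6.66, 6.52 and 6.66 (6.61 ± 0.09), close to the line in every culture. Neither was called with a margin of 1 log2 unit. Gdf2 and Gdf10 are neighbouring genes with no coding gene between them in RefSeq, and the cultures spanned 0.15 log2 units in Gdf2 and 1.54 in Gdf10.

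The other 12 BMP and GDF ligands were not above background and had means from 5.44 to 6.43. They were Bmp2, Bmp5, Bmp6, Bmp8a, Bmp8b, Bmp10, Bmp15, Gdf3, Gdf5, Gdf6, Gdf7 and Gdf9. Bmp6, a ligand close to Bmp7, gave 6.48, 6.02 and 6.53 (6.34 ± 0.28, adjusted p by limma 0.41). Gdf3, a ligand of the early embryo, gave 6.50, 5.97 and 6.49 (6.32 ± 0.30, adjusted p 0.522). Both had culture 2 below the line and the other cultures above it, and both passed without culture 2 (adjusted p 0.0396 and 0.0394 by limma). Gdf5, a ligand of joint formation, has 2 probe sets, neither of which was called, and the one with the higher mean gave 6.38, 6.06 and 6.42. Gdf7, a ligand of the roof plate, gave 6.36, 6.36 and 6.26 (6.33 ± 0.05), over the line in each culture by too little to pass the test.

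All 3 TGF-beta ligands were above background. Tgfb2, the isoform most tied to developing neurons and glia, gave 9.14, 8.69 and 8.64 (8.82 ± 0.28). Tgfb3 gave 7.66, 7.98 and 7.97 (7.87 ± 0.18). Tgfb1, the isoform best known from immune cells and platelets, gave 7.00, 6.75 and 7.23 (6.99 ± 0.24) and was not called with the margin. Culture 1 was highest for Tgfb2 and lowest for Tgfb3, so the isoforms did not share an order of cultures.

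Of the activin, inhibin and nodal genes, Inha and Inhbb were above background. Inha, the alpha subunit that turns an activin dimer into the antagonist inhibin, gave 8.90, 9.32 and 9.35 (9.19 ± 0.26). Inhbb, the subunit of activin B, gave 7.12, 7.19 and 7.25 (7.19 ± 0.07). The range of Inhbb was 0.13 log2 units. Inhba, the subunit of activin A, gave 5.82, 6.20 and 6.26 (6.09 ± 0.24) and was not called, nor were the liver subunits Inhbc and Inhbe or Nodal, the ligand of the early axis. Bmp1, which despite its name is a metalloprotease that cuts procollagen and chordin, gave 9.95, 9.56 and 9.61 (9.70 ± 0.21) and was above background.

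Type I receptors of each ligand class were above background. Bmpr1a, the main BMP type I receptor of neural progenitors, gave 10.05, 9.77 and 9.88 (9.90 ± 0.14). Bmpr1b, its close relative, gave 7.68, 7.17 and 7.10 (7.32 ± 0.31). Acvr1, a type I receptor for BMP6 and BMP7, gave 8.34, 8.45 and 8.24 (8.35 ± 0.11). Bmpr1b was highest in culture 1 and was not called with the margin, while every culture of the other receptors lay well over the line. Acvr1b, the activin type I receptor, gave 9.50, 9.87 and 9.72 (9.70 ± 0.19). Tgfbr1, the TGF-beta type I receptor, gave 8.55, 8.55 and 8.33 (8.48 ± 0.13).

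The type I receptors not above background were Acvr1c, a receptor for nodal and some activins, at 5.16, 5.30 and 5.15 (5.20 ± 0.09), and Acvrl1, a receptor of endothelial cells, at 6.31, 5.70 and 6.28 (6.10 ± 0.34). Each has a called type I receptor as its neighbour in the genome, Acvr1 beside Acvr1c and Acvr1b beside Acvrl1. Of 5 neighbouring pairs among the 66 genes, 3 had only 1 member above background, the third being Smad3 and Smad6. Gdf10 and Gdf2 were both called, and neither Inhbc nor Inhbe was. With 44 of the 66 genes called (66.7%), pairs of unlike call can be met anywhere, and a role of position was not tested.

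All 4 type II receptors were above background. Bmpr2, the BMP-specific type II receptor, gave 11.963, 12.001 and 11.946 (11.97 ± 0.03), a range of 0.05 log2 units. Acvr2a gave 9.29, 9.57 and 9.45 (9.44 ± 0.14) and Acvr2b, the other receptor shared by activins and BMPs, gave 7.99, 7.79 and 7.91 (7.89 ± 0.10). Tgfbr2, the TGF-beta type II receptor, gave 7.58, 7.71 and 7.28 (7.52 ± 0.22) and was not called with the margin. Bambi, a decoy receptor without a kinase domain, gave 7.37, 7.64 and 7.61 (7.54 ± 0.15) and was above background. Tgfbr3, the co-receptor betaglycan, gave 6.07, 6.21 and 6.18 (6.16 ± 0.07), under the line in every culture.

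Secreted antagonists were mostly above background, though often by a small margin. Nog, noggin, which binds BMP2, BMP4 and BMP7, gave 6.98, 6.86 and 6.89 (6.91 ± 0.06). Chrd, chordin, gave 6.54, 6.62 and 6.96 (6.71 ± 0.23) and was not called without culture 2 (adjusted p by limma 0.0833 against 0.0095). Grem1, gremlin, gave 6.59, 6.97 and 6.85 (6.80 ± 0.19). These classical BMP antagonists all lay less than 1 log2 unit over the line and were not called with the margin. Chrdl1, a chordin-like antagonist made by astrocytes, gave 7.60, 7.69 and 7.40 (7.56 ± 0.15) and was called with it. Bmper, a chordin-related regulator of BMP4, gave 8.37, 7.75 and 7.86 (7.99 ± 0.33) and was also called with it, with culture 1 highest. Chrdl2 gave 5.92, 5.73 and 5.96 (5.87 ± 0.12) and was not above background.

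Of the follistatin family, Fst, which binds activins, gave 6.77, 6.81 and 6.96 (6.85 ± 0.10), and Fstl3, which does so too, gave 7.16, 6.80 and 7.09 (7.02 ± 0.19). Neither was called with the margin. Fstl1, a secreted glycoprotein, gave 8.86, 8.12 and 8.45 (8.48 ± 0.37), highest in culture 1 and lowest in culture 2. Fstl5, a follistatin-like protein of brain, gave 9.57, 10.67 and 10.38 (10.21 ± 0.57), lowest in culture 1, with a range of 1.10 log2 units (2.15-fold). Of the 13155 genes above background 113 had a range at least as wide (0.859%). Fstl4 gave 6.25, 6.72 and 6.24 (6.40 ± 0.28) and was over the line in culture 2 alone, without a call.

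Latent TGF-beta binding proteins tether inactive TGF-beta in the matrix, and all 4 were above background. Ltbp4 gave 8.68, 8.60 and 8.58 (8.62 ± 0.05) and Ltbp3 gave 8.86, 8.27 and 8.35 (8.49 ± 0.32), with culture 1 highest in both. Ltbp1 gave 7.67, 7.60 and 7.26 (7.51 ± 0.22). Ltbp2, which unlike the others is not thought to bind latent TGF-beta, gave 6.59, 6.56 and 6.55 (6.57 ± 0.02), close to the line. A probe set shared by Ltbp2 and D030025P21Rik, outside the gene counts, gave 5.88, 5.79 and 5.88, under the line in every culture. Ltbp1 and Ltbp2 were not called with the margin.

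Both Smad branches were above background. In the BMP branch, Smad1 gave 8.51, 8.84 and 8.59 (8.65 ± 0.17) and Smad5 gave 9.38, 9.18 and 9.06 (9.21 ± 0.16). Smad9, also known as Smad8, gave 6.64, 7.10 and 6.72 (6.82 ± 0.24), highest in culture 2 and not called with the margin. In the TGF-beta and activin branch, Smad2 gave 10.23, 10.32 and 10.20 (10.25 ± 0.06) and Smad3 gave 7.80, 8.07 and 7.80 (7.89 ± 0.15). Smad4, the partner of both, gave 10.48, 10.29 and 10.33 (10.37 ± 0.10). The widest range among these 6 Smads was that of Smad9, 0.45 log2 units.

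The inhibitory Smads differed in call. Smad7, which blocks both branches, gave 7.64, 7.73 and 7.76 (7.71 ± 0.06) and was above background. Smad6, which blocks mainly the BMP branch, gave 5.82, 5.70 and 5.65 (5.72 ± 0.08) and was under the line in every culture. The difference between these probe sets was not tested. Smurf1, a ubiquitin ligase for BMP Smads, gave 9.55, 9.53 and 9.56 (9.55 ± 0.02), the narrowest range of the 66 genes at 0.04 log2 units. Smurf2, its relative, gave 9.93, 9.76 and 9.72 (9.80 ± 0.11).

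The spread between cultures was under 1 log2 unit for most of the 66 genes, but wider than over all genes. These differences were not tested. A range over 1 log2 unit was found in 3 of 66, where 1.29% of all 20751 genes tested had one. All 3 were among the 44 genes above background (6.82%), where 1.32% of the 13155 genes above background had such a range. The median range of the 44 genes above background was 0.31 log2 units, and it was 0.22 for all 13155 genes above background. Of the 44 genes, 8 (18.2%) had a range over 0.5, beside 1578 of the 13155 above background. In 4 of these 8 (Bmp4, Bmper, Fstl1 and Ltbp3) culture 1 was highest and culture 2 lowest, an order found in 23.3% of the 1578 genes with such a range. In Bmpr1b and Tgfb2 culture 1 was highest and culture 3 lowest, while Gdf10 and Fstl5 were lowest in culture 1. The order most frequent among the 1578 genes, culture 2 highest and culture 1 lowest (53.9%), was that of Fstl5 alone among the 8.

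**Figure D3:**
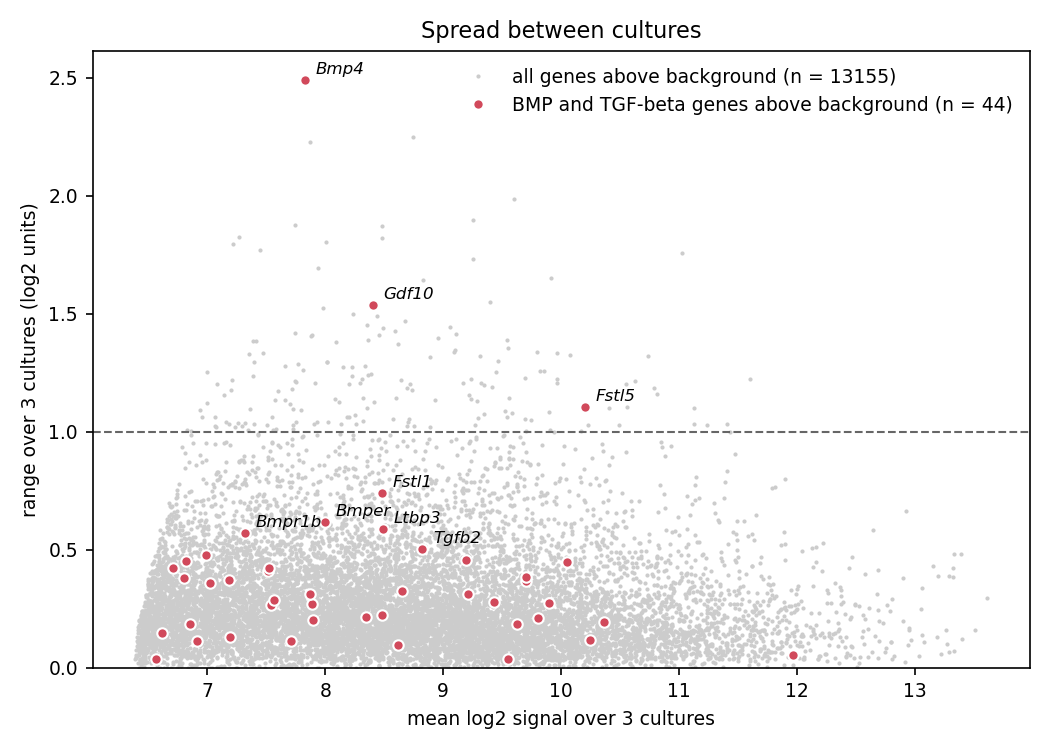
Range over the 3 cultures (y axis, log2 units) against the mean log2 signal (x axis) for all 13155 genes above background (grey) and the 44 BMP and TGF-beta genes among them (red); the dashed line marks 1 log2 unit. Bmp4 has the widest range at 2.49, and genes with a range over 0.5 are named.

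Markers of other cells differed between the cultures too. Of the 6 astrocyte markers, all were highest in culture 1, and Gfap (8.51, 6.64 and 8.08), Aqp4 (8.74, 7.53 and 8.34), Gja1 (11.22, 10.00 and 10.67), Aldh1l1 (10.69, 9.80 and 10.30) and S100b (6.82, 6.18 and 6.65) were lowest in culture 2, as Bmp4 was. Slc1a2 was lowest in culture 3 by 0.01 log2 units. The median of the astrocyte list was 8.62, 7.66 and 8.21. Culture 1 was highest in other lists too. All 4 progenitor markers and all 3 dividing-cell markers were highest in culture 1, with medians of 10.43, 9.97 and 10.12 and of 10.24, 9.86 and 10.01. Of the 6 oligodendrocyte-lineage markers, 5 were highest in culture 1, all but Cspg4, and the median of the list was 10.16, 9.72 and 9.80. Otx2, the choroid plexus and roof plate marker above background, gave 9.06, 8.45 and 8.70, the order of Bmp4. The others of that list were not above background, and all were lowest in culture 2. Ttr (6.58, 6.34 and 7.50) and Lmx1a (5.65, 5.42 and 5.87) were highest in culture 3, and Wnt3a (5.43, 5.16 and 5.31) in culture 1. The median of the 4 cortical glutamatergic neuron markers was 5.99, 6.65 and 5.98, highest in culture 2. All 8 MGE interneuron markers were lowest in culture 1, and their median was 10.09, 10.47 and 10.33. The median of the 10 fibroblast, meningeal and pericyte markers was 6.55, 6.68 and 6.56. Among them Acta2, the 1 called with the margin, gave 9.93, 9.87 and 8.38, a range of 1.55 log2 units. The others of that list had narrower ranges. The part of these cells in the spread of Bmp4, Gdf10 and Fstl5 was not tested.

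**Figure D4:**
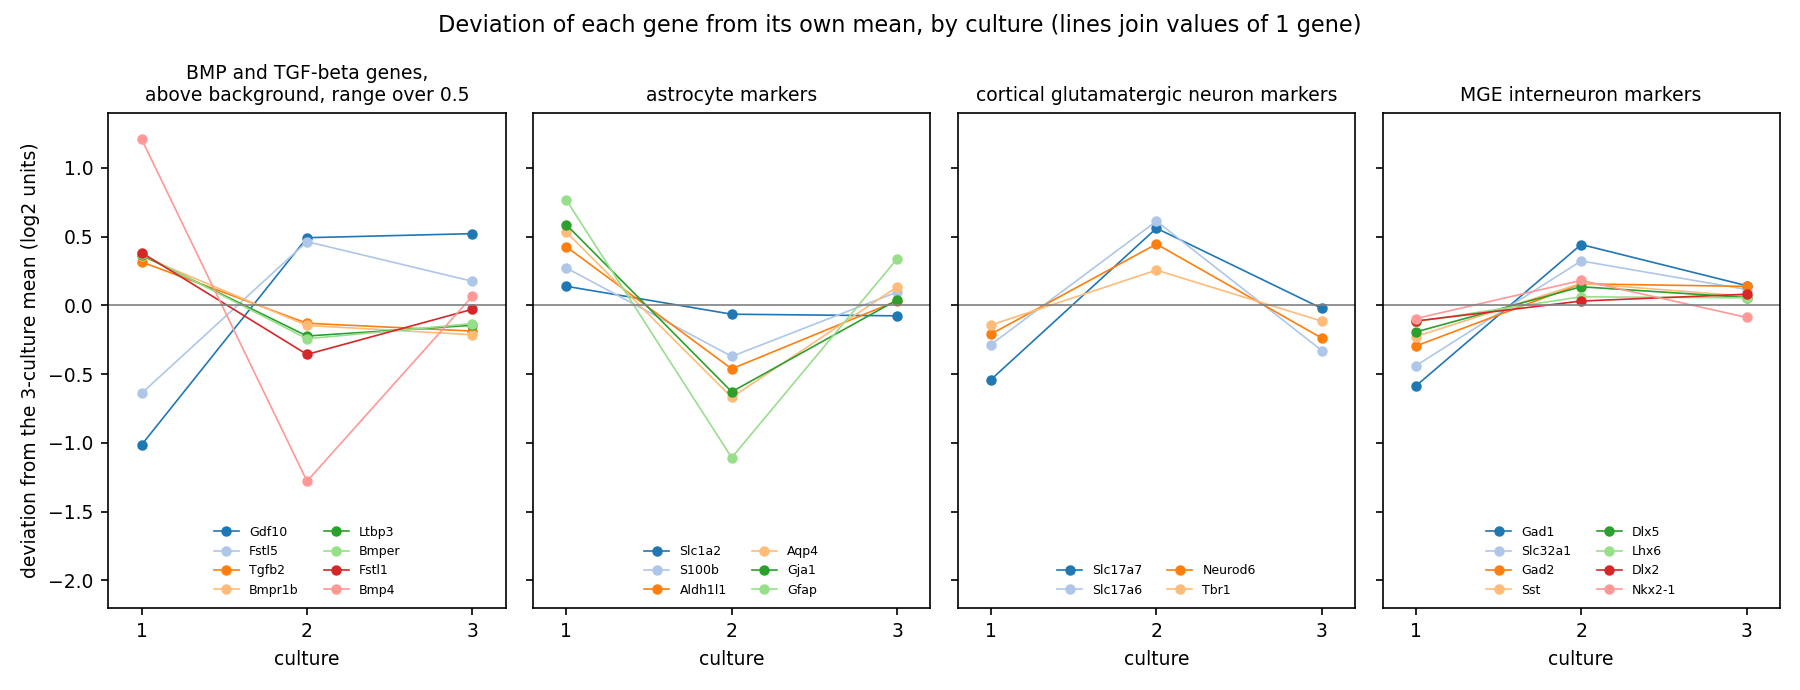
Deviation of each gene from its own 3-culture mean (y axis, log2 units) in cultures 1, 2 and 3 (x axis) for the 8 BMP and TGF-beta genes above background with a range over 0.5 and for 3 marker lists; lines only join the values of 1 gene. Bmp4 and the astrocyte markers are highest in culture 1, and Gdf10, Fstl5 and the MGE interneuron markers are lowest there.

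The rest of the pathway was read from a list of 65 further genes measured, of which 52 (80.0%) were above background, beside 63.4% of all genes tested. With the margin 37 (56.9%) were, beside 47.6% of all genes tested. The counts were 16 of 17 for Smad anchors, cofactors and phosphatases, 4 of 4 for kinases and adaptors of other receptor branches, 10 of 12 for latency, matrix and processing, 9 of 10 for target genes, 8 of 10 for antagonists, 4 of 7 for co-receptors and 1 of 5 for ligands and receptors. Ski and Skil, nuclear repressors of Smads, gave 9.28, 9.37 and 9.35 (9.34 ± 0.05) and 7.71, 7.95 and 7.95 (7.87 ± 0.14). Rgmb, a BMP co-receptor of neurons, gave 10.48, 11.22 and 10.91 (10.87 ± 0.37), highest in culture 2, whereas Eng, the endothelial co-receptor endoglin, gave 6.62, 6.41 and 6.62 (6.55 ± 0.12). Eng lay close to the line and Rgmb far over it in every culture.

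Further secreted antagonists were above background with the margin. Twsg1, twisted gastrulation, a partner of chordin, gave 10.09, 9.95 and 9.85 (9.96 ± 0.12). Crim1, a membrane protein that holds BMPs at the cell surface, gave 9.55, 9.83 and 9.41 (9.60 ± 0.21). Nbl1, also called DAN, gave 8.50, 8.19 and 8.27 (8.32 ± 0.16). The widest range in these 3 genes was that of Crim1, 0.42 log2 units. Vwc2, a brain antagonist of BMPs, gave 6.42, 6.95 and 6.57 (6.64 ± 0.27), and its adjusted p by limma of 0.0261 became 0.11 without culture 2 and 0.0898 without culture 3. Sostdc1, an antagonist related to sclerostin, gave 6.70, 7.34 and 7.35 and was lost without culture 2 (0.0699). Without culture 3, Eng (0.0684), Lrrc32, a tether of latent TGF-beta at 6.87, 6.44 and 6.59 (0.0714), and Tll1, a relative of Bmp1 at 6.80, 7.90 and 7.40 (0.0523), were lost. No call among the 65 changed without culture 1. Tmeff1, Itgav and Ccn2 were each called from 1 of their 2 probe sets.

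The Id genes code for inhibitors of basic helix-loop-helix factors and are direct targets of BMP Smads in many cells, though other signals induce them too. Id2 gave 11.22, 10.83 and 11.12 (11.06 ± 0.20) and Id4 gave 8.74, 7.85 and 8.19 (8.26 ± 0.45). Id1 gave 6.98, 6.74 and 7.09 (6.93 ± 0.18) and Id3 gave 7.46, 7.48 and 7.22 (7.39 ± 0.14). All 4 were above background, and Id1 and Id3 were not called with the margin. Id4 and Id2 were highest in culture 1 and lowest in culture 2, as Bmp4 was, Id1 was lowest in culture 2 and highest in culture 3, and Id3 was lowest in culture 3. Over 3 cultures no relation between Bmp4 and these genes can be tested.

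**Figure D5:**
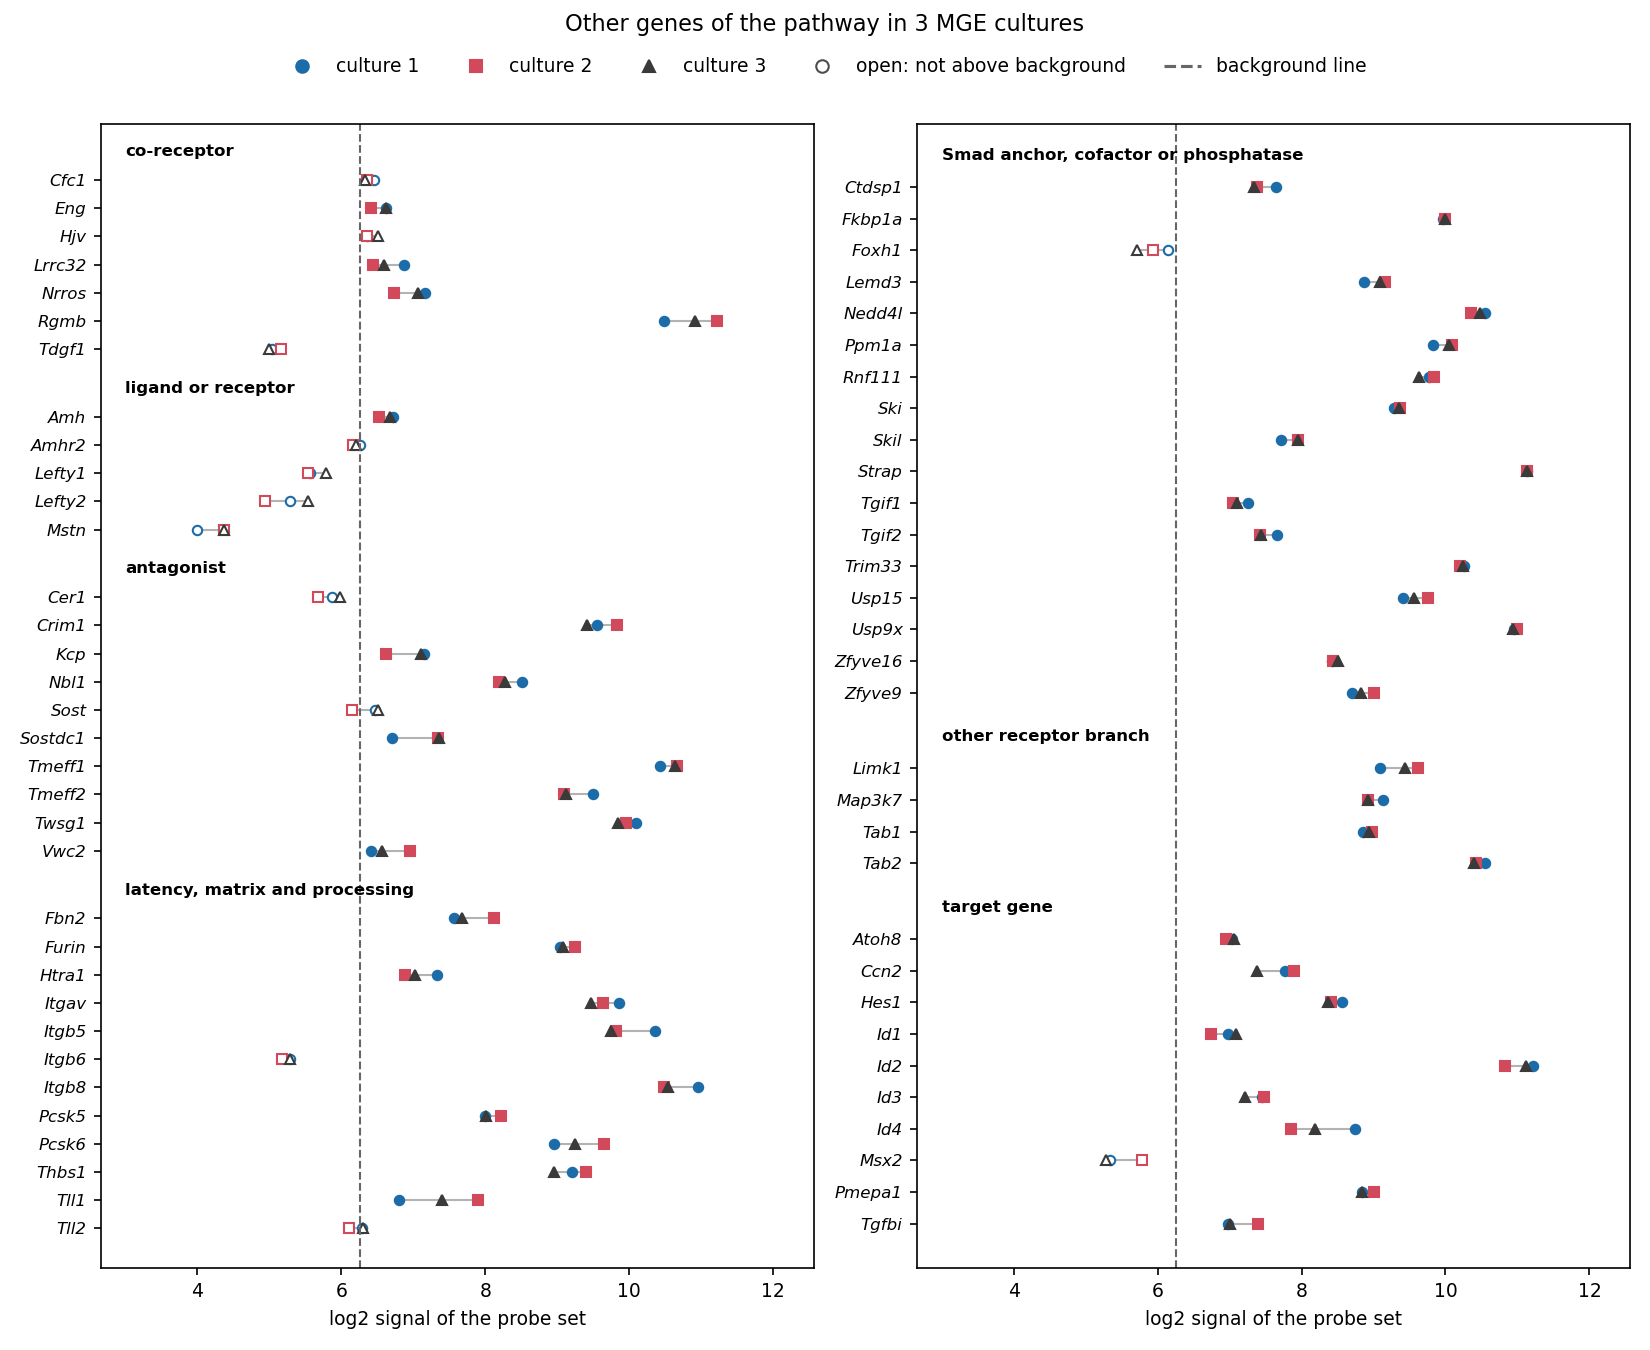
Log2 signal (x axis) of the 65 further pathway genes (y axis, grouped by role) in culture 1 (circle), culture 2 (square) and culture 3 (triangle), with the background line dashed and open symbols for genes not above background. Smad cofactors lie over the line except Foxh1, and most other ligands lie under it.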

How the data were processed

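Log2 signals were deposited by the authors, 1 value per probe set and culture, from a 1-colour Affymetrix array hybridized with biotin-labelled cDNA from 100 ng of total RNA. The log base is not given in the sources used here and was taken as 2, the usual output of RMA, and every fold and log2 unit rests on that. The submitters' processing notes name oligo and RMA as the tools, with version and settings not given in the sources used here. Columns had medians of 6.57, 6.52 and 6.56. Genes were named from the platform's annotation, where 23521 of 41345 probe sets carry 1 gene symbol, 1814 several and 16010 none. Only those with 1 symbol were used, and 22081 outside the sensory receptor families were tested.

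Calls were made with limma 3.58.1 in R 4.3.3 (intercept fit, eBayes, one-sided test against the background line, Benjamini-Hochberg over all probe sets tested). One called probe set sufficed for a gene, and values printed come from its probe set of highest mean. In simulated data for the calls, probe sets were placed 0.25, 0.5, 1 and 2 log2 units over the line, 50 at each height. Of these 36, 46, 50 and 50 were recovered among 22081 fitted together, and 10 of 8420 below the line were called. Beforehand, means less than 0.25 over the line were set to 0.25 under it and counted as below. The simulation therefore says nothing about probe sets lying less than 0.25 over the line. Differences between cultures were described and not tested, since each culture has 1 array.

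The genes and lists were chosen with earlier results of these data known. Values per culture were printed for those of the 66 genes that were called, whose call changed without 1 culture, whose probe sets disagreed or whose range exceeded 1 log2 unit. Of the further pathway genes they were printed for a fixed choice of co-receptors, targets and antagonists and for genes whose call changed without 1 culture. Other genes were named to complete a count or for their role, after their values were seen. Further pathway genes without a probe set of their own were not analysed here. Alternatives were other lines and background genes, a margin, no test, an intensity trend, quantile normalization, median centring, a filter on dim probe sets, the mean of probe sets, a range over 0.5 log2 units as the width that counts as wide, and leaving out each culture.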

Additional observations from a re-analysis of the deposited data

Results flagged for a closer look

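Of the 3 probe sets shared with another gene and so outside the gene counts, 2 gave signal above the background line in all 3 cultures. The probe set assigned to both Gdf1, a nodal-like ligand, and Cers1, a ceramide synthase expressed from the same transcript region, gave 9.64, 9.84 and 9.73 log2 units (mean 9.74), and which gene gave it cannot be told. A probe set shared by Bmpr2 and Gm20272 gave 9.64, 9.71 and 9.61 (mean 9.65).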

How the results depend on the processing

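The 44 calls became 29 with a margin of 1 log2 unit. They became 31 at the 99th percentile line and 31 with the other background families. They became 57 at the 90th percentile line and 45 when all cultures had to exceed the line without a test. Of all genes, 47.6% were called with the margin, 49.9% at the 99th percentile line and 48.6% with the other families. At the 90th percentile line 72.5% of all genes were called, and 64.5% when all cultures had to exceed the line. The count stayed at 44, with the same 44 genes, under the intensity trend, quantile normalization, median centring, the filter on dim probe sets and the mean of probe sets. Without 1 culture it ran from 43 to 44, where 60.9% to 62.5% of all genes were called. Of the 44 genes, 28 were called under every alternative. The 13 genes lost at the 99th percentile line and with the other families were the same: Bmp3, Bmp4, Bmpr1b, Chrd, Fst, Fstl3, Gdf2, Grem1, Inhbb, Ltbp2, Nog, Smad9 and Tgfb1. The mean of 9 of them lay under the 99th percentile line (7.10) and that of 11 under the line of the other families (7.22). Ltbp1 and Tgfbr2 were lost with the margin as well.

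Of all 66 genes, called or not, 14 had a wide range when the limit was 0.5 log2 units. Among the 44 called genes 8 had one, beside 1578 of the 13155 genes above background. At the limit of 1 log2 unit, 3 of the 66 had a wide range with all cultures and 1 to 3 without 1 culture. Leaving out a culture cannot widen a range, so this count could only stay or fall. Calls of the 65 further pathway genes ran from 37 with the margin to 57 at the 90th percentile line, and from 48 to 52 without 1 culture. The shares of all genes called ran from 47.6% to 72.5% and from 60.9% to 62.5% at the same settings. No paired analysis was possible because the series has 1 group. Signal over background limits the calls near the line, and 3 arrays limit the precision of each mean.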
